A study of Mus musculus with 10 samples.

Results

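Mitochondrial ribosomal protein genes encode the protein part of the ribosome that works inside mitochondria. The 75 genes described here are the protein-coding models whose symbol is Mrpl or Mrps followed by a number and, for the Mrps18 genes, a letter, out of 42465 gene models in all. They were followed in RNA sequencing of mouse neural tube explants, which were taken at embryonic day 9.5, contained neural crest cells and were cultured for 4 days. WT explants (5 libraries) were compared with Ednrb-/- explants (5 libraries), and Ednrb encodes the endothelin receptor type B. Both genotypes were kept in the same medium, which held 20 nM EDN3, a ligand of that receptor, and 10% fetal bovine serum. The labels call the libraries biological replicates and name neither the Ednrb allele nor the number of embryos in a library.

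The mitochondrial ribosome translates the few proteins of the respiratory chain that are encoded by mitochondrial DNA. Its RNAs come from the mitochondrial genome, whereas all of its proteins are encoded in the nucleus, made in the cytosol and imported. The small subunit holds the messenger RNA and its decoding site, and the large subunit joins amino acids and holds the tunnel through which the new protein leaves. Some of the proteins descend from ribosomal proteins of bacteria and others occur only in mitochondria. Of the 75 genes, 49 encode large subunit proteins, 25 encode small subunit proteins, and 45 have a bacterial homologue while 29 are specific to mitochondria. Mrps30 and Mrps18a belong to the large subunit in spite of their names. Mrps36 is counted in neither subunit, since its protein is now known as a component of the 2-oxoglutarate dehydrogenase complex. The genes lie on 17 chromosomes, with 10 on chromosome 11, 8 on chromosome 17 and 7 on chromosome 6.

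Promoters are shown first, because some genes of this family hold short motifs of known factors near their start sites. RefSeq (GRCm38.p6) gave a promoter, from 250 bases before to 50 bases after the start, for 66 of the 75 genes. Each gene counted once, here and in the backgrounds, with the first promoter by position where several were listed. On the minus strand that is the most downstream start. Motifs of 3 factors known for acting on nuclear genes of mitochondria were searched on both strands, GCGCATG for NRF1, CCGGAAG for ETS factors such as GABP, and ATGGCGGC for YY1. The 3 promoters printed here belong to genes that were higher in Ednrb-/- explants and held a match. All lie on the minus strand, at chr13:14612988-14613287 for Mrpl32, chr16:84735195-84735494 for Mrpl39 and chr4:49521034-49521333 for Mrpl50. They run 5′ to 3′ along the gene, and capitals mark the NRF1 matches in the first and second and the YY1 match in the third.
Mrpl32: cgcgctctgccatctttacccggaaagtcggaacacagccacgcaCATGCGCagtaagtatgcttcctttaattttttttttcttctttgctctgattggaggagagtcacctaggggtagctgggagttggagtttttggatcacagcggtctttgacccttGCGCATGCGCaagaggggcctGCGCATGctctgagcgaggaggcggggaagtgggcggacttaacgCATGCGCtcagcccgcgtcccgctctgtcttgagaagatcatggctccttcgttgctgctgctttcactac
Mrpl39: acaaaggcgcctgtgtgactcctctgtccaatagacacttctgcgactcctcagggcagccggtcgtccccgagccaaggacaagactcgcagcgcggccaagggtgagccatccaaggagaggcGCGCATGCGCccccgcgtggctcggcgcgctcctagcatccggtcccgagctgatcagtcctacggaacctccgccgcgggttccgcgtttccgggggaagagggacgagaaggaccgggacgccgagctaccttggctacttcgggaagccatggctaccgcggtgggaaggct
Mrpl50: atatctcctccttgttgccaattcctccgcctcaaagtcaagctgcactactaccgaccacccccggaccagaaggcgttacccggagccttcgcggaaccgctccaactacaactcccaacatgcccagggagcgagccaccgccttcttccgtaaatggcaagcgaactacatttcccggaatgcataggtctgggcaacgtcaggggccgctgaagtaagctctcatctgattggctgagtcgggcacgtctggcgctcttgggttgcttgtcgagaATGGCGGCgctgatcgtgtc

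Mrpl32 held 5 matches to GCGCATG, starting at bases -205, -87, -84, -66 and -21 from the start site (the start itself is base 1), the pair at -87 and -84 overlapping on opposite strands. Mrpl39 held an overlapping pair at -125 and -122, and Mrpl50 held its YY1 match at 31 bases after the start. The promoters of Mrpl42 and Mrpl47, the other genes that were higher, held none of the 3 motifs. A match describes letters in this window and is not a measured site.

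Of the 66 promoters 33 held none of the 3 motifs. In the family as a whole the ETS motif was in 23 of 66 promoters (34.85%), against 9.08% of 27025 mouse promoters and 17.81% of the 9382 promoters of protein-coding genes tested here. The YY1 motif was in 12 (18.18%), against 2.33% of all promoters and 5.09% of those of genes tested. In 11 of these 12 it lay between 3 and 31 bases after the start, and in Mrps11 it lay at -110. Those 11 matches read ATGGCGGC along the gene, and the first letters, ATG, are also those of a start codon. Whether they coincide with the start of the coding sequence was not examined, so their share cannot be read as a share of YY1 sites. The NRF1 motif was in 8 (12.12%), against 3.99% and 7.31%. The median GC content was 58.17% in the family, 52.67% over all promoters and 61.67% over those of genes tested. Of the genes for the factors themselves, Nrf1 (log2 fold change 0.10), Gabpa (-0.17) and Yy1 (0.02) did not pass the test between the genotypes. Their adjusted p-values were 0.588, 0.231 and 0.901 (limma). Gabpb1, which encodes another subunit of GABP, had a log2 fold change of 0.31 and did not pass either (limma adjusted p = 0.0701). Tested members with a YY1 match had a median log2 fold change of 0.21 (11 genes, 11 of them above 0), and those without had 0.10 (54 genes, 40 above 0). With and without an NRF1 match the medians were 0.06 (8 genes) and 0.11 (57 genes), and with and without an ETS match 0.04 (22 genes) and 0.17 (43 genes). None of these splits was tested.

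Nearly every gene of the family was expressed in the explants, most of them at a moderate level. Levels are given as FPKM, fragments scaled to gene length and library size, as the authors deposited them. Over all 10 libraries 74 members passed the filter for testing, 0.5 FPKM or more in 5 or more libraries. Across the 75 genes the median of the mean levels was 15.6 FPKM, while the 15156 genes tested had a median of 6.85 FPKM. FPKM divides by the length of the gene model. The median length was 1825.5 bases over the 74 tested members and 3434 bases over all genes tested. In 63 of the genes the mean lay between 5 and 40 FPKM, 52 reached at least 10 FPKM and 3 reached at least 50 FPKM. Reads worked back from the values numbered 13022266 to 19532570 per library, and each tested member rested on 5 to 1815 reads per library.

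**Figure D1:**
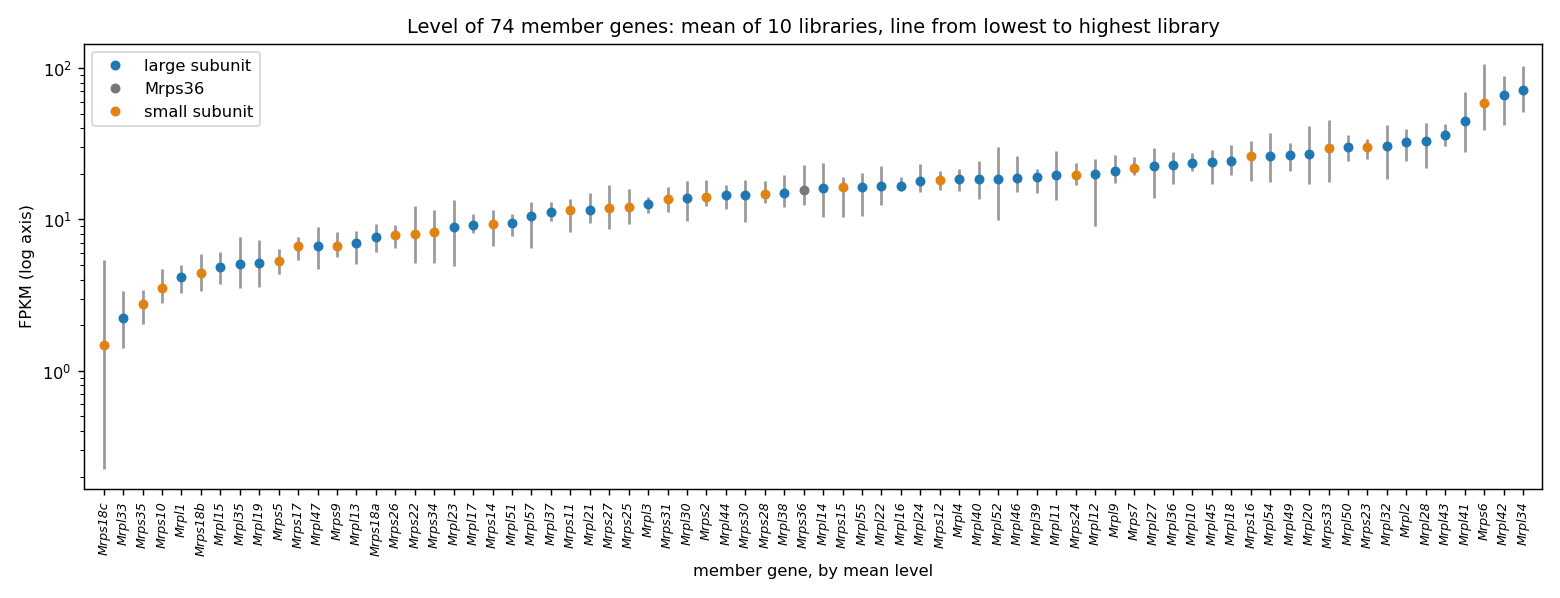
Level of the 74 tested genes, ordered by their mean FPKM over 10 libraries on a log axis, with a line from the lowest to the highest library and colours for the subunit. Most genes lie between 5 and 40 FPKM, Mrpl34, Mrpl42 and Mrps6 stand at the top, and the long line of Mrps18c at the bottom spans 0.225 to 5.38 FPKM.

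The highest levels belonged to Mrpl34 (71.8 FPKM over 10 libraries), Mrpl42 (66.3 FPKM), Mrps6 (58.4 FPKM) and Mrpl41 (44.5 FPKM). Mrpl34 and Mrps6 encode homologues of bacterial ribosomal proteins, and Mrpl42 and Mrpl41 encode proteins specific to mitochondria. Values are listed from replicate 1 to 5. For Mrpl34 they were 57.5, 71.9, 51.4, 67.8 and 64.4 FPKM in WT and 71.7, 59.6, 102.7, 83.5 and 87.5 FPKM in Ednrb-/- libraries. The ranges of the genotypes overlapped, with 3 of the 5 Ednrb-/- libraries above the highest WT library (limma, log2 fold change 0.36, SE 0.15, adjusted p = 0.109). Without Ednrb-/- replicate 2 it passed the threshold (adjusted p = 0.0357). For Mrps6 the WT libraries held 50.6, 56.7, 51.9, 83.1 and 53.4 FPKM and the Ednrb-/- libraries 39.0, 43.4, 49.5, 105.9 and 50.1 FPKM. In both genotypes replicate 4 stood above the other libraries. The Mrps6 model overlaps that of Slc5a3, a transporter of myo-inositol on the same strand, over 29149 bases, so reads of the pair may not be separable. Slc5a3 was also highest in replicate 4 of each genotype, with 14.8 FPKM in WT and 21.0 FPKM in Ednrb-/-. For Mrpl41 the WT libraries held 51.9, 39.2, 27.9, 39.2 and 36.8 FPKM and the Ednrb-/- libraries 45.2, 41.7, 46.4, 47.5 and 69.3 FPKM, which overlap (limma, log2 fold change 0.36, adjusted p = 0.165). Each neighbouring pair in this order had overlapping ranges over the 10 libraries.

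The lowest levels were those of Mrpl53, Mrps18c, Mrpl33 and Mrps35. Mrpl53 was listed at 0 in all 10 libraries and was not tested. The whole Mrpl53 model, 900 bases, lies under the model Gm42688 on the same strand, which had 0.267 to 0.776 FPKM, so a 0 there does not show that the gene is off. Mrps18c, the small subunit homologue of bacterial S18, was low in 8 libraries and higher in a single library of each genotype. Its WT libraries held 0.400, 0.320, 0.472, 0.958 and 5.25 FPKM and its Ednrb-/- libraries 0.875, 5.38, 0.225, 0.507 and 0.339 FPKM. Mrpl33 had a mean of 2.23 FPKM over 10 libraries and Mrps35 of 2.75 FPKM. Their models are 7326 and 8649 bases long, while those of Mrpl34, Mrpl42, Mrps6 and Mrpl41 are 645, 667, 1053 and 888 bases. Mrps35 rested on 276 to 589 reads per library, near the 223 to 571 reads of Mrpl32 (768 bases, mean 30.3 FPKM). The order by FPKM thus depends on model length as well as on reads.

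In Ednrb-/- explants 5 of the 74 tested genes were higher than in WT explants and 0 were lower. All 5 encode large subunit proteins, Mrpl32, Mrpl42, Mrpl47, Mrpl50 and Mrpl39, and their means rose between 1.19-fold and 1.57-fold. The test was limma on log2(FPKM + 0.5), with p-values adjusted by Benjamini-Hochberg over 15156 genes and a threshold of 0.05, and fold changes are Ednrb-/- minus WT on that scale. The 5 genes are 6.76% of the 74, close to the background of 6.53% of all genes tested that were higher in Ednrb-/-. Lower in Ednrb-/- were 13% of all genes tested and no gene of the family. At an unadjusted p under 0.05, 16 of the 74 members were higher and 1, Mrpl33, was lower, against 14.2% of all genes tested that were higher and 18.9% that were lower. With limma's voom on the reads worked back from the values, 4 were higher and 0 lower. In 3 of the genes, Mrpl32, Mrpl39 and Mrpl47, every Ednrb-/- library was above every WT library, as in 4.78% of all genes tested, and none showed the opposite, as 8.44% of all genes did. Leaving out a library changed the count of higher members to 8 (WT replicate 1), 2 (WT replicate 4), 3 (Ednrb-/- replicate 1 or 2) or 1 (WT replicate 3 or 5, Ednrb-/- replicate 3 or 5). Over all genes the main scaling gave 990 higher and 1966 lower, and quantile normalization gave 1603 and 1730, with 9 members higher and 0 lower.

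Mrpl32 had the largest difference. Its protein, a homologue of bacterial L32, is trimmed by the m-AAA protease after import before it joins the large subunit. The gene (MGP_C57BL6NJ_G0020632) spans bases 12222147 to 12224885 of chromosome 13 (minus strand), here and below in the C57BL/6NJ assembly of the file. In the order of the replicates, WT libraries held 26.5, 23.1, 18.5, 24.4 and 25.5 FPKM, and Ednrb-/- libraries held 31.3, 40.6, 40.6, 31.0 and 41.9 FPKM. The groups did not overlap, and Ednrb-/- replicates 1 and 4 were the lowest of their genotype. WT averaged 23.6 ± 3.12 FPKM and Ednrb-/- 37.1 ± 5.42 FPKM (SD over 5 libraries each), which is 0.64 ± 0.12 (SE) on the log2 scale, with an adjusted p of 0.00593 by limma and an exact permutation p (two-sided) of 0.00794, the lowest value that 5 against 5 libraries can give. These values rest on 223 to 571 reads. In each of the 19 alternative fits the gene stayed past the threshold (adjusted p between 0.0049 and 0.0294). Psma2, a proteasome gene that starts 205 bases away on the other strand, did not pass the test (log2 fold change 0.24, adjusted p = 0.147).

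Mrpl42, one of the most abundant genes of the family, spans bases 100251809 to 100275673 of chromosome 10 (minus strand). WT libraries held 66.5, 59.2, 41.9, 57.3 and 56.5 FPKM, and Ednrb-/- libraries held 72.6, 84.0, 87.9, 64.3 and 72.3 FPKM. Ednrb-/- replicate 4 was below WT replicate 1, and every other Ednrb-/- library was above all WT libraries. WT averaged 56.3 ± 8.97 FPKM and Ednrb-/- 76.2 ± 9.59 FPKM (SD over 5 libraries each), which is 0.44 ± 0.13 (SE) on the log2 scale, with an adjusted p of 0.0328 by limma and an exact permutation p (two-sided) of 0.0159. The adjusted p was above the threshold when WT replicate 3 (0.0604), 4 (0.0635) or 5 (0.0680) or Ednrb-/- replicate 2 (0.0722), 3 (0.0815) or 5 (0.0569) was left out, with no low-value filter (0.0601) and with no trend in the prior variance (0.0506).

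Mrpl47, whose protein descends from bacterial L29 at the mouth of the exit tunnel, was lower in level and rose from 5.59 ± 0.77 to 7.73 ± 1.09 FPKM (SD over 5 libraries each). The gene spans bases 31854776 to 31869040 of chromosome 3 (minus strand). WT libraries held 6.15, 4.80, 4.71, 6.26 and 6.05 FPKM, and Ednrb-/- libraries held 8.78, 6.53, 7.73, 6.76 and 8.85 FPKM. The groups did not overlap, and WT replicate 4 and Ednrb-/- replicate 2 were the nearest libraries of the 2 genotypes (0.43 ± 0.13 (SE) on the log2 scale, limma adjusted p = 0.0346, exact permutation p = 0.00794, two-sided). The call was lost when WT replicate 2 (0.0609), 3 (0.0869) or 5 (0.0568) or Ednrb-/- replicate 1 (0.0718), 3 (0.0693) or 5 (0.0882) was left out and with no low-value filter (0.0532). The model overlaps Ndufb5 over 533 bases and Actl6a over 1577 bases, both on the opposite strand, and no source used here states whether counting took account of strand. Ndufb5, a subunit of complex I, rose from 12.1 to 19.5 FPKM (log2 fold change 0.67, limma adjusted p = 0.00822), and Actl6a had a log2 fold change of -0.04 (adjusted p = 0.874). The part of shared reads in the Mrpl47 result was not tested.

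Mrpl50 encodes a large subunit protein specific to mitochondria and spans bases 49722135 to 49731865 of chromosome 4 (minus strand). WT libraries held 31.1, 24.7, 24.2, 29.3 and 25.4 FPKM, and Ednrb-/- libraries held 32.2, 36.3, 33.8, 29.4 and 34.7 FPKM. The groups overlapped by a single library, since Ednrb-/- replicate 4 was below WT replicate 1. WT averaged 26.9 ± 3.08 FPKM and Ednrb-/- 33.3 ± 2.63 FPKM (SD over 5 libraries each), which is 0.30 ± 0.09 (SE) on the log2 scale, with an adjusted p of 0.0415 by limma and an exact permutation p (two-sided) of 0.0159. The call was lost when WT replicate 2 (0.0700), 3 (0.103), 4 (0.0550) or 5 (0.102) or Ednrb-/- replicate 1 (0.0594), 2 (0.0857), 3 (0.0862) or 5 (0.0946) was left out, with no filter (0.0585) and with no trend (0.0676). Zfp189, a zinc finger gene that starts 83 bases away on the other strand, was also higher (log2 fold change 0.76, limma adjusted p = 0.00746).

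Mrpl39, whose protein resembles threonyl-tRNA synthetase, had the smallest change of the 5, with the least spread. The gene spans bases 88058672 to 88082308 of chromosome 16 (minus strand). WT libraries held 18.4, 19.1, 15.0, 17.3 and 16.5 FPKM, and Ednrb-/- libraries held 21.2, 20.1, 20.3, 19.8 and 21.5 FPKM. The groups did not overlap, and the Ednrb-/- libraries lay close together. WT averaged 17.3 ± 1.62 FPKM and Ednrb-/- 20.6 ± 0.75 FPKM (SD over 5 libraries each), which is 0.25 ± 0.08 (SE) on the log2 scale, with an adjusted p of 0.0479 by limma and an exact permutation p (two-sided) of 0.00794. The call was lost when WT replicate 3 (0.113), 4 (0.0953) or 5 (0.115) or any Ednrb-/- replicate was left out (0.0859, 0.0670, 0.0851, 0.0536 and 0.111 for replicates 1 to 5), with no filter (0.0523), in TPM (0.0661), with no trend (0.0753) and with voom (0.0523).

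**Figure D2:**
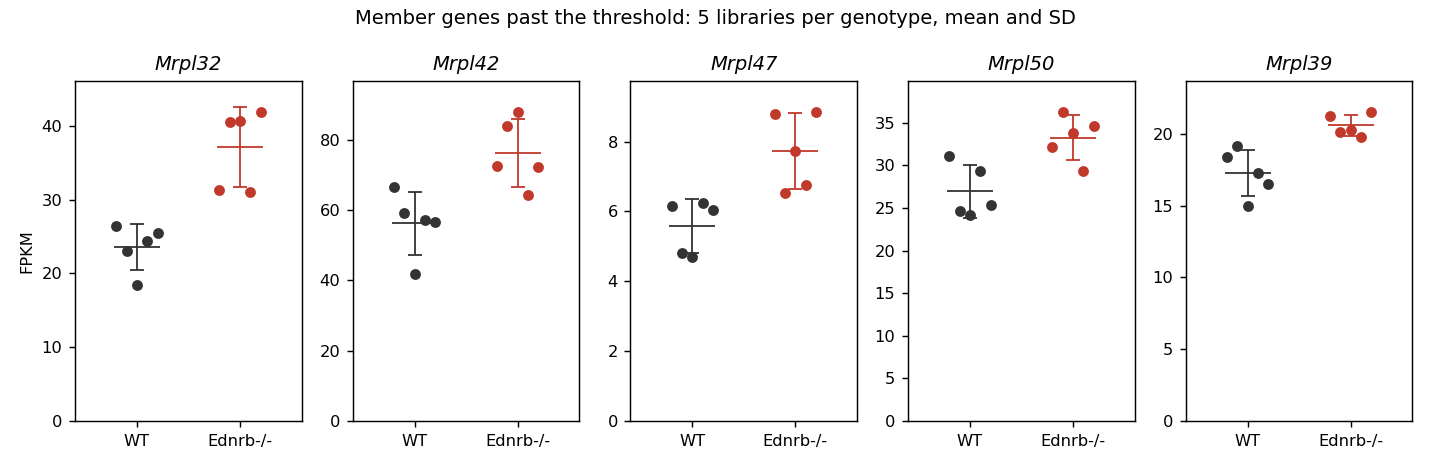
FPKM of the 5 genes past the threshold in each of the 5 WT and 5 Ednrb-/- libraries (points), with the mean and SD of each genotype. In Mrpl32, Mrpl47 and Mrpl39 all Ednrb-/- points lie above all WT points, and in Mrpl42 and Mrpl50 the lowest Ednrb-/- point lies below the highest WT point.

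Across the family most differences were small and above 0. Of the 74 genes, 58 (78.4%) had a positive log2 fold change, against 50.7% of all genes tested, and the median was 0.10 with quartiles of 0.0026 and 0.25, against 0.0048 with quartiles of -0.28 and 0.22 over all genes. Large subunit genes had a median of 0.14 (48 tested, 5 higher, 0 lower, 40 above 0) and small subunit genes a median of 0.05 (25 tested, 0 higher, 0 lower, 17 above 0). The difference between the subunits was not tested. Among genes with a bacterial homologue 2 of 45 were higher and the median was 0.08, and among those specific to mitochondria 3 of 28 were higher and the median was 0.12. The 11 tested genes with a length under 1000 bases had a median of 0.10, as did the 63 longer ones. Of the 11 shorter genes, 11 were above 0 and 2 were higher, Mrpl32 and Mrpl42. Of the 63 longer genes, 47 were above 0 and 3 were higher. Among 387 tested protein-coding genes in the length class that held the 11, 60.7% were above 0 and 6.2% were higher. In the class of the longest genes these shares were 48.5% and 7.1%. Across the 74 genes the log2 fold change had a Pearson r of -0.07 with log2 length and a Spearman rho of 0.04 with length. The difference between shorter and longer genes was not tested.

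**Figure D3:**
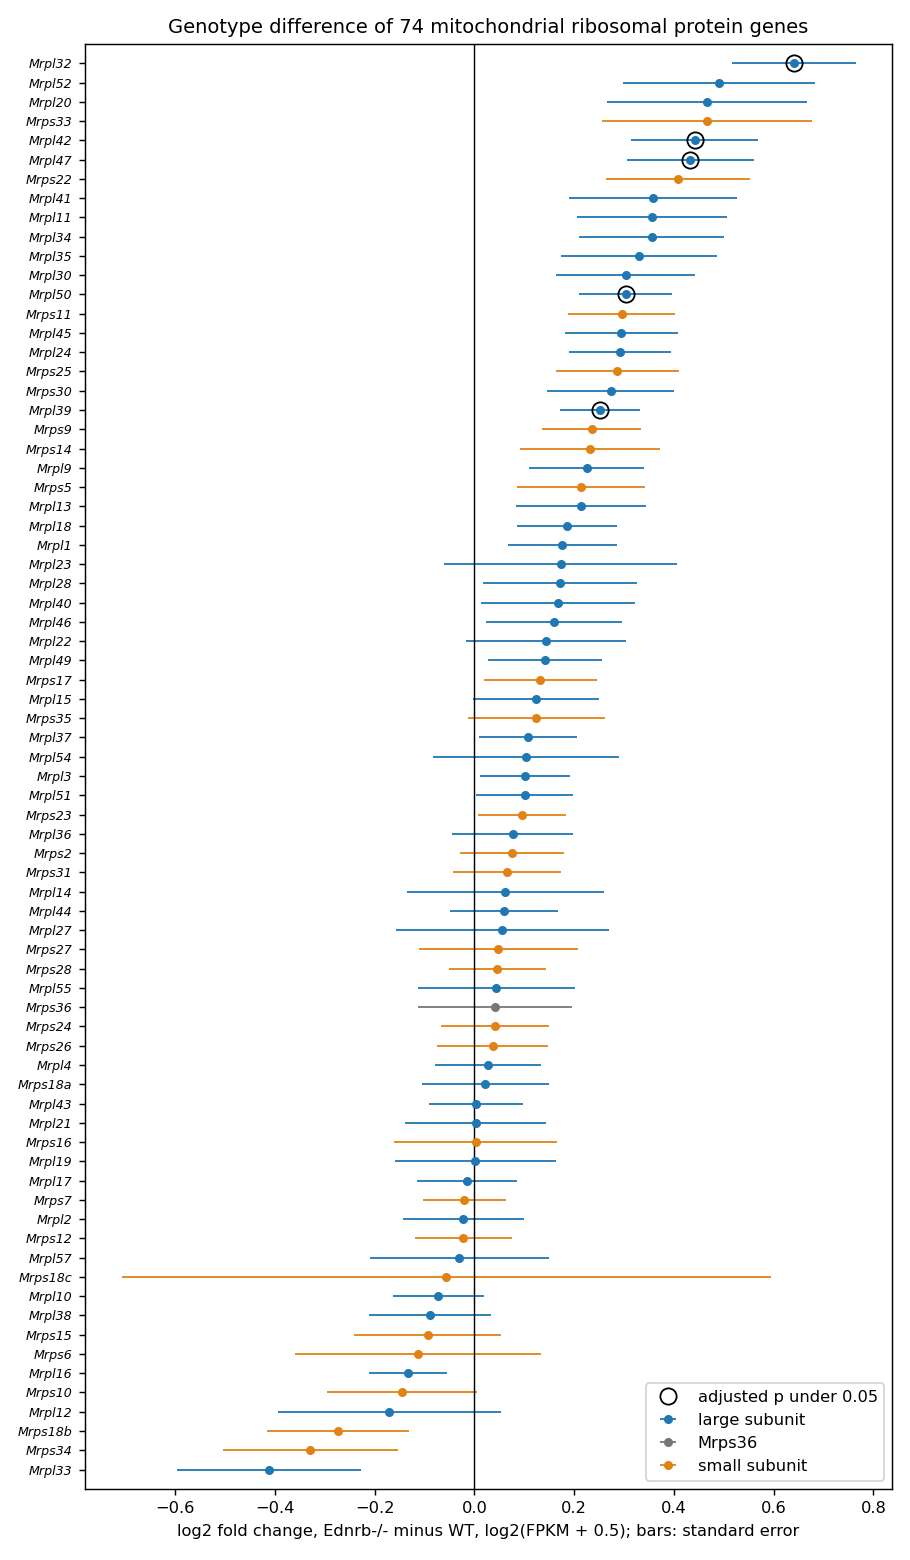
Log2 fold change (Ednrb-/- minus WT, on log2(FPKM + 0.5)) of the 74 tested genes with its standard error, coloured by subunit, with rings on the 5 genes past the threshold. The genes run from Mrpl33 (-0.41) to Mrpl32 (0.64), and 58 lie above 0.

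Genes with other roles did not pass the test. Mrpl10, Mrpl11 and Mrpl12 form the stalk of the large subunit, where translation factors bind, and Mrpl12 is also known as a partner of the mitochondrial RNA polymerase. Their log2 fold changes were -0.07, 0.36 and -0.17, with adjusted p-values of 0.626, 0.124 and 0.643 (limma). Mrpl11 held 21.6, 18.9, 13.4, 17.5 and 14.4 FPKM in WT and 22.4, 18.0, 22.0, 19.3 and 28.5 FPKM in Ednrb-/- libraries, which overlap. Mrpl12 held 17.4 to 24.9 FPKM in WT libraries and 20.4 to 22.6 FPKM in 4 Ednrb-/- libraries, and Ednrb-/- replicate 2 stood apart at 9.07 FPKM. In Mrps12, a protein of the decoding centre, WT averaged 18.3 ± 2.04 and Ednrb-/- 17.9 ± 1.65 FPKM (SD over 5 libraries each; limma adjusted p = 0.901). The Mrps18 genes, whose proteins sit at different places of the ribosome, had log2 fold changes of 0.02 (Mrps18a), -0.27 (Mrps18b) and -0.06 (Mrps18c, SE 0.65). Mrps30 had a log2 fold change of 0.27 (adjusted p = 0.159) and Mrps36 of 0.04 (adjusted p = 0.882). The lowest log2 fold change of the family was that of Mrpl33 (-0.41, limma adjusted p = 0.144). It held 2.64 ± 0.72 FPKM in WT and 1.82 ± 0.31 FPKM in Ednrb-/- (SD over 5 libraries each). Its model overlaps Gm43809 on the same strand over 67046 bases and Rbks on the opposite strand over 39860 bases. Gm43809 had a mean of 0 FPKM in both genotypes, and Rbks had a log2 fold change of -0.35 (limma adjusted p = 0.391). The part of shared reads in the Mrpl33 values was not tested.

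Part of the variation of the family was shared between its genes, and single libraries stood out. The summed FPKM of the 75 genes was 1348, 1308, 1050, 1358 and 1199 in WT replicates 1 to 5 and 1400, 1287, 1474, 1344 and 1542 in Ednrb-/- replicates 1 to 5. The sums averaged 1253 ± 130 FPKM in WT and 1409 ± 101 FPKM in Ednrb-/- (SD over 5 libraries each), 1.12-fold apart, and the ranges overlapped. WT replicate 3 had the lowest sum and Ednrb-/- replicate 5 the highest. Of the 74 genes, 43 had their lowest value in WT replicate 3, which held the lowest value for 14.2% of all genes tested, and 19 had their highest in Ednrb-/- replicate 5, against 11.8% of all genes. Without WT replicate 3 the median log2 fold change of the family was 0.06, 47 of the 74 genes were above 0 and 1 passed the threshold. Over the 10 libraries, the mean correlation between a pair of members was 0.288 and 78.1% of pairs were positive, against 0.00212 and 49.9% over all genes tested. These pairs share the same libraries, their depth and the difference between the genotypes, which was not removed. Mrpl52 (r = 0.907) and Mrpl51 (r = 0.905) followed the mean of the other members most closely, and Mrps18b (r = -0.764) and Mrps34 (r = -0.504) ran against it.

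Markers of cell types also differed between the genotypes and between libraries. In bulk RNA fewer cells of a type and less RNA per cell cannot be told apart. Ednrb itself fell from 52.3 ± 7.16 to 7.15 ± 3.41 FPKM (SD over 5 libraries each; limma log2 fold change -2.92). All 9 tested smooth muscle genes were lower in Ednrb-/- (median log2 fold change -2.58), as were all 9 tested genes of fibroblast-like mesenchyme (-2.49) and 6 of 7 tested melanoblast genes (-2.58). All 11 tested neuronal genes were higher (0.57), 1 of 8 neural progenitor genes was higher and 2 were lower (0.26), and of 12 proliferation genes none passed, with 12 below 0 (median -0.25; 3 lower at an unadjusted p under 0.05). Myh11 of the smooth muscle list, Pdgfra, Lum and Thy1 of the mesenchymal list and Tyr and Tyrp1 of the melanoblast list missed the filter on low values. Summed levels ran from 371 to 2799 FPKM in WT and from 65.8 to 351 FPKM in Ednrb-/- libraries for smooth muscle, from 108 to 647 and from 9.7 to 108 FPKM for mesenchyme, and from 1360 to 1676 and from 2145 to 2418 FPKM for neurons. The mean log2 level of the smooth muscle genes was 5.81, 3.89, 6.67, 6.36 and 6.003 in WT libraries and 3.67, 3.37, 2.08, 3.95 and 2.03 in Ednrb-/- libraries. It was thus highest in WT replicate 3, where the ribosomal protein genes were lowest, and lowest in Ednrb-/- replicate 5, where they were highest. The remaining WT libraries did not keep an opposite order. WT replicate 4, at 6.36, held the highest WT sum of the ribosomal protein genes (1358 FPKM). In WT replicate 2, which had the lowest WT smooth muscle level (3.89), that sum was 1308 FPKM. For the neuronal genes the range was 6.09 to 6.38 in WT and 6.65 to 6.996 in Ednrb-/- libraries, and WT replicate 3 was the lowest library. The part of these cell types in the differences of the mitochondrial ribosomal protein genes was not tested.

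**Figure D4:**
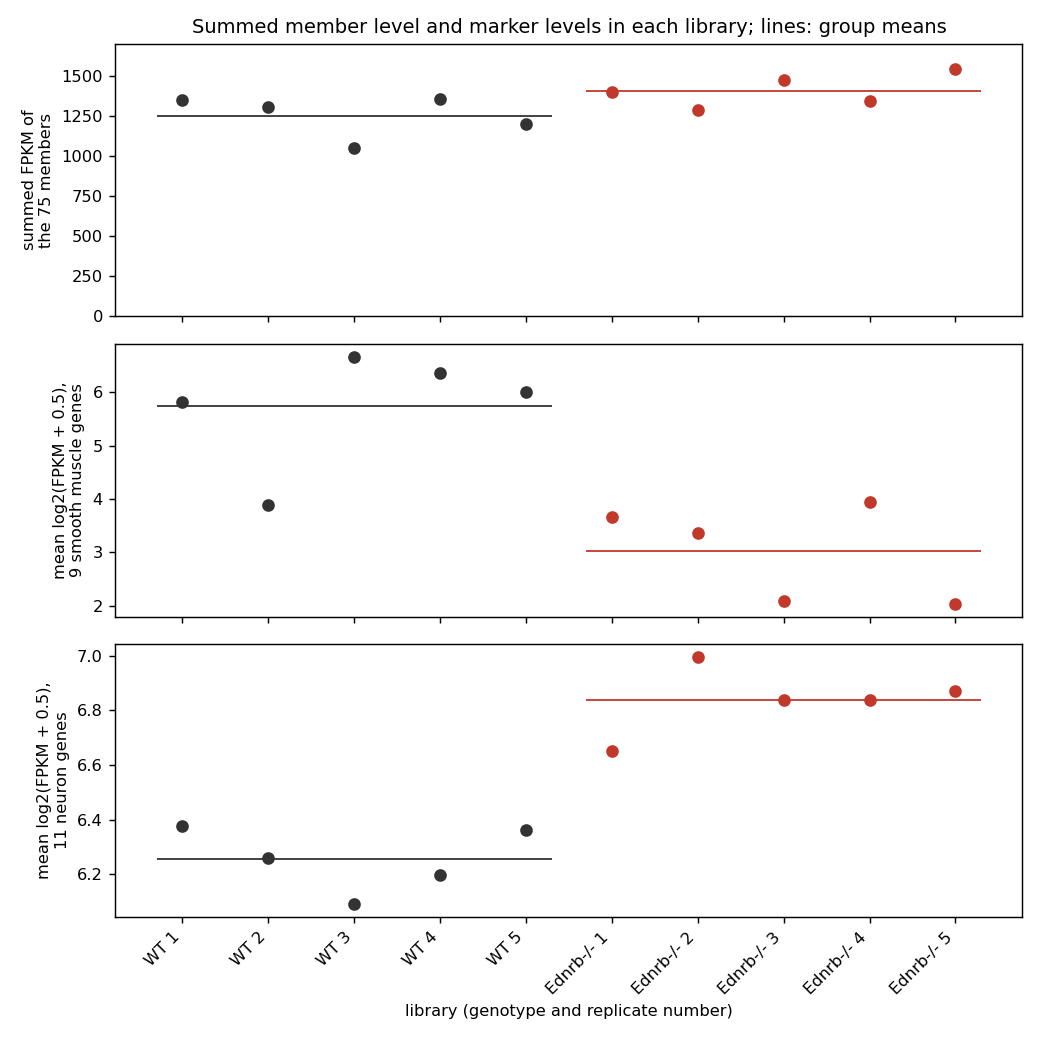
Summed FPKM of the 75 genes, mean log2(FPKM + 0.5) of 9 smooth muscle genes and mean log2(FPKM + 0.5) of 11 neuronal genes in each library, with lines at the genotype means (only the first axis starts at 0). The summed level is lowest in WT replicate 3 (1050) and highest in Ednrb-/- replicate 5 (1542), the smooth muscle level is highest in the former (6.67) and lowest in the latter (2.03), and the neuronal levels of the genotypes do not overlap. The remaining WT libraries do not keep an opposite order, since WT replicate 4 has the highest WT sum (1358) at a smooth muscle level of 6.36.

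Among genes that work with the mitochondrial ribosome, single genes were higher or lower. The counts stand against a background of 6.53% higher and 13% lower over all genes tested, and no list was tested against it. Proteins of the ribosome with other names numbered 6 tested genes, all above 0, with a median log2 fold change of 0.17, and 1 was higher. That gene, Dap3, a GTP-binding protein of the small subunit, rose from 22.1 ± 1.61 to 28.1 ± 2.82 FPKM (SD over 5 libraries each; limma log2 fold change 0.34, adjusted p = 0.0200). Its call was lost when WT replicate 3 (0.0531) or 5 (0.0515) or Ednrb-/- replicate 5 (0.0504) was left out. Chchd1 (0.46, adjusted p = 0.0976) and Ict1 (0.24, adjusted p = 0.142), the latter a peptidyl-tRNA hydrolase built into the large subunit, did not pass.

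Of 23 tested assembly genes 2 were higher and 1 was lower (median 0.11). Mpv17l2, a membrane protein needed for assembly, fell from 21.2 ± 1.90 to 15.3 ± 2.62 FPKM (SD over 5 libraries each; limma adjusted p = 0.0186), which missed the threshold without WT replicate 4 (0.0530). Mterf4, which brings the methyltransferase Nsun4 to the large subunit, rose by a log2 fold change of 0.43 (adjusted p = 0.0328; 0.0248 to 0.0877 over the 10 fits that left out a library), and was lost in the fits without WT replicate 3, 4 or 5 or Ednrb-/- replicate 1, 2, 3 or 5 and with no filter (0.0556). Rpusd4, a pseudouridine synthase of the large ribosomal RNA, rose by 0.45 (adjusted p = 0.0465; 0.0335 to 0.113 over the same fits), and stayed past the threshold in 1 of those fits, the one without Ednrb-/- replicate 1. It was also lost with no filter (0.0746), in TPM (0.0705) and with no trend (0.0536).

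Among 14 tested translation factors 3 were higher and 1 was lower (median 0.18). The initiation factor Mtif2 rose from 11.3 ± 0.87 to 14.8 ± 1.79 FPKM (SD over 5 libraries each; limma adjusted p = 0.0233), and was lost when WT replicate 4 (0.0626) or 5 (0.0514) or Ednrb-/- replicate 5 (0.0603) was left out. The elongation factor Gfm1 went the other way, from 11.5 ± 0.84 to 8.66 ± 1.20 FPKM (limma adjusted p = 0.0286), and was lost without WT replicate 3 (0.0671), 4 (0.0717) or 5 (0.0767). The release factor Mtrf1 rose from 4.02 to 5.82 FPKM (adjusted p = 0.0431; 0.0388 to 0.101 over the fits that left out a library, of which 3, those omitting WT replicate 2 or 4 or Ednrb-/- replicate 4, kept it), and was also lost with no filter (0.0714), in TPM (0.0592) and with voom (0.0581). Mtif3, another initiation factor, which the naming rule does not cover, went from 2.09 to 3.21 FPKM (adjusted p = 0.0479).

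Genes further from the ribosome differed singly. Of 20 mitochondrial aminoacyl-tRNA synthetase genes 0 were higher and 1 was lower (median 0.03), Iars2, for isoleucine, from 8.56 ± 0.64 to 6.63 ± 0.44 FPKM (SD over 5 libraries each; limma adjusted p = 0.0205). Its call was lost leaving out WT replicate 4 (0.0548) or 5 (0.0644) or Ednrb-/- replicate 5 (0.0547), and with quantile normalization (0.0553). Of 11 genes for mitochondrial DNA and its transcription 1 was higher and 1 lower. Mterf2, of the family that binds mitochondrial DNA and RNA, rose from 8.27 ± 0.89 to 13.7 ± 2.10 FPKM (limma log2 fold change 0.69, adjusted p = 0.00416), and the mitochondrial topoisomerase gene Top1mt fell from 5.34 ± 0.54 to 3.56 ± 0.31 FPKM (-0.52, adjusted p = 0.00772). Both stayed past the threshold in all 10 fits that left out a library. Of 8 tested regulators 0 were higher and 1 was lower, Myc, from 14.2 ± 3.72 to 8.16 ± 0.89 FPKM (limma log2 fold change -0.73, adjusted p = 0.00814), which also stayed past the threshold in all 10 such fits. Of 15 import and chaperone genes 1 was lower, Tomm40, the pore of the outer membrane, from 18.6 to 15.0 FPKM (adjusted p = 0.0475; 0.0260 to 0.119 over those fits, past the threshold in 3, those omitting WT replicate 1 or 5 or Ednrb-/- replicate 1), and was also lost with no filter (0.0637), quantile normalization (0.0563), no trend (0.0689) and voom (0.0767).

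Genes of the cytosolic ribosome and of the respiratory chain were also mostly above 0. None of 72 tested cytosolic ribosomal protein genes passed in either direction (limma; 4 higher and 2 lower at an unadjusted p under 0.05), 73.6% were above 0, and the median log2 fold change was 0.08. Of 75 tested nuclear genes of the respiratory chain 7 were higher and 1 was lower, 86.7% were above 0, and the median was 0.19. The median of the mitochondrial ribosomal protein genes, 0.10, lay between these values, and the differences between the families were not tested. All 3 families had their lowest summed level in WT replicate 3 and their highest in Ednrb-/- replicate 5.

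Members often start close to a gene on the other strand. For 30 of the 75 (40%) a protein-coding gene on the other strand started within 1000 bases of the member's start, against 15.2% of the 12550 protein-coding genes tested. Both genes were tested in 29 such pairs, in which Mrpl46 and Mrps11 are partners of each other and count in both orders, and the partner was higher in 3 and lower in 0, where 6.53% of all genes tested were higher and 13% lower. These partners were Ndufb5, Zfp189 and Zfp661, beside Mrpl47, Mrpl50 and Mrps5, the last of which did not pass (log2 fold change 0.21). Models of 20 members overlap a protein-coding model on the opposite strand and those of 13 members overlap a model on the same strand, so part of their reads may be shared or left out, depending on counting settings that no source used here states.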

How the data were processed

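RNA of 10 mouse explant cultures was extracted with TRIzol, per the labels' protocols. Tools listed by the submitters' processing notes are HISAT2 2.0.5, featureCounts 1.5.0-p3 and fastp, with mm10 as the build, while the identifiers are those of the C57BL/6NJ assembly, so coordinates were printed as deposited and not converted. The authors deposited FPKM per gene model, per the file headers, together with gene length and biotype. The table held 0 further columns of values per sample. FPKM times length gave whole reads for 100% of values within 0.01 of a read. No source used here states how strand was used or what was filtered.

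The test was limma 3.58.1 (R 4.3.3) on log2(FPKM + 0.5) with a trend in the prior variance, on genes with 0.5 FPKM or more in 5 or more libraries, and was tested on simulated data. Exact permutation tests used all assignments of 5 against 5 libraries, and p-values measure the spread between these libraries. Alternatives were pseudocounts of 0.1 and 1, no filter, a mean FPKM of at least 1, TPM, quantile normalization, no trend, the replicate number as a block, each library left out and, added after seeing the data, voom. Named were members past the threshold, the 4 with the highest and 4 with the lowest mean, members with special roles, and up to 3 genes per list with the lowest p. Mrpl51, Mrpl52, Mrps5, Mrps11, Mrps34, Mrpl46, Mtif3 and neighbouring genes were named after their values were seen. Members and the 13 lists were chosen with earlier results of these data known.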

Additional observations from a re-analysis of the deposited data

Results flagged for a closer look

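Of 42 checks of a group of 5 libraries, over the named genes and the summed level of the family, 6 held a library far from the others by Dixon's test, where chance flags about 1 in 20. Mrps6 stood apart in replicate 4 of both genotypes, with 83.1 FPKM in WT (the other libraries held 50.6 to 56.7) and 105.9 FPKM in Ednrb-/- (39.0 to 50.1 in the others). Slc5a3, whose model overlaps Mrps6 on the same strand, was highest in the same 2 libraries (14.8 and 21.0 FPKM). Mrps18c was at 5.25 FPKM in WT replicate 5 (0.320 to 0.958 in the others) and at 5.38 FPKM in Ednrb-/- replicate 2 (0.225 to 0.875 in the others). Mrpl41 was at 69.3 FPKM in Ednrb-/- replicate 5 (41.7 to 47.5 in the others), the library with the highest summed level of the family. Mrpl12 was at 9.07 FPKM in Ednrb-/- replicate 2 (20.4 to 22.6 in the others).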

How the results depend on the processing

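The count of members higher in Ednrb-/-, 5 of 74, was 1 with no filter, 9 with quantile normalization, 2 with no trend in the prior variance and 1 to 8 when a library was left out (1 without WT replicate 3 or 5 or Ednrb-/- replicate 3 or 5, and 8 without WT replicate 1). It was 4 or 5 with the other pseudocounts, a mean FPKM of at least 1, TPM and voom. Members lower in Ednrb-/- numbered 0 in each of these fits. The median log2 fold change of the members lay between 0.06 (without WT replicate 3) and 0.17 (quantile normalization, which moved the median of all genes to 0.10). Mrpl32 was the only one of the 5 genes past the threshold in every fit. Over all genes 2956 passed, and 1945 to 3276 when a library was left out (among WT replicates, 1945 leaving out the third, 1955 the fifth and 1960 the fourth). The cause was not tested. Deviations of same-numbered libraries had correlations between -0.163 and 0.153, the highest for replicate 4. The labels do not say whether the numbers pair the samples, and these few values cannot settle it. With the replicate number as a block 1 member was higher (Mrpl32) and 1877 genes passed. Of the named partner genes it ended the calls of Dap3 (adjusted p = 0.0964), Mterf4 (0.0977), Rpusd4 (0.0869), Mtif2 (0.0833), Gfm1 (0.0746), Mtrf1 (0.108), Iars2 (0.0923) and Tomm40 (0.121). The 2 planned count tests were not run, and voom on the reads worked back was run in their place. Genes near the filter, such as Mrps18c with 5 to 86 reads, carry counting noise.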

Other observations

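An unnamed transcript of the authors' table, 767 bases long and on an unplaced contig, was listed at 4308, 1075, 2345, 1728 and 911 FPKM in WT replicates 1 to 5 and at 3854, 5824, 5377, 2662 and 6022 FPKM in Ednrb-/- replicates 1 to 5. The authors' annotation names it as like the mitochondrially encoded Mtco1, one of the proteins that the mitochondrial ribosome makes. WT averaged 2073 ± 1373 FPKM and Ednrb-/- 4748 ± 1443 FPKM (SD over 5 libraries each), or 1.36 ± 0.41 (SE) on the log2 scale (limma, adjusted p = 0.0379; exact two-sided permutation p = 0.0238). The groups overlapped, since WT replicate 1 was above Ednrb-/- replicates 1 and 4. This transcript was picked by its annotation and a high mean level, and any model of lower level with that annotation was not followed. It was named after its values were seen, and no explanation of its difference was tested.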
